A study of Mus musculus with 12 samples.

Results

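The aminotransferases examined here are 10 genes of amino acid metabolism (Got1, Got2, Gpt, Gpt2, Agxt, Agxt2, Etnppl, Aadat, Bcat2 and Psat1) that were chosen by name as an enzyme family, with earlier results of these data known. Every probe set whose platform symbol was one of these names was taken, which gave 19 probe sets; the array named 18193 genes in all, and 13598 of them were tested. All 10 members passed the filter on dim probe sets, through 18 of their 19 probe sets. Expression was measured on Affymetrix arrays in livers of 12 male mice, 3 in each of 4 groups. One group was wild type and untreated; the other 3, of wild-type, Clk/Clk mutant and PPARα-null genotype, ate bezafibrate mixed into the diet at 0.5% by weight over 5 days. Wild-type and Clk/Clk mice had the Jcl:ICR background, and the null mice came from crossing 129S4SvJae-PPARalphatm1Gonz/J with Jcl:ICR. All mice were 6 to 12 weeks old, were kept on a light-dark cycle, and gave livers at ZT14, counted in hours from lights on. Neither mutant was left untreated, so a mutant's genotype and its response to the drug cannot be told apart. The samples are labelled as replicates of a group without naming separate cages or litters, so p-values measure the spread between these livers.

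An aminotransferase moves the amino group of an amino acid onto a keto acid with the help of pyridoxal phosphate, and in liver this links amino acid breakdown to glucose production, urea synthesis and the exchange of reducing power between cytosol and mitochondria. Aspartate and alanine aminotransferase each exist as a cytosolic and a mitochondrial isoenzyme from separate genes, and both activities are familiar in blood as signs of liver injury. Bezafibrate is a fibrate that activates PPARα, a nuclear receptor that controls fatty acid oxidation in hepatocytes. CLOCK, paired with BMAL1, drives rhythmic transcription through E-boxes, and the study collected livers when that activity is said to peak in order to find PPARα-regulated genes that depend on CLOCK.

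Levels are given on the log2 scale as deposited, so a difference of 1 is a doubling of signal. Within a group pairs of arrays correlated at 0.993 to 0.996 over all probe sets, and no array stood apart. Ppara gave 9.88 (SD 0.157) in the null group against 10.78 (SD 0.232) in treated wild type, and Clock gave 9.25 (SD 0.162) in Clk/Clk mice against 8.17 (SD 0.282); these probe sets were not placed relative to the disrupted parts and check neither genotype. All 8 hepatocyte markers passed the filter. Their mean level per mouse was 14.15 to 14.24 in untreated wild type, 13.47 to 13.62 in treated wild type, 13.89 to 14.03 in null and 13.68 to 13.78 in Clk/Clk mice, and 4 of the 8 fell with the drug, while on the drug 3 were higher in null and 1 in Clk/Clk mice than in wild type. These shifts move the same way as most members, and their part in the members' differences was not tested; in whole liver, fewer cells of a type and less RNA per cell cannot be told apart. Macrophage markers spanned 8.37 to 8.60 in untreated wild type, 8.45 to 8.97 in treated wild type, 8.45 to 8.67 in null and 8.02 to 8.31 in Clk/Clk mice. Of 8 such markers 1 rose with the drug, 2 were lower in null and 3 were lower in Clk/Clk mice than in treated wild type. The endothelial list had 2 of 6 falls with the drug and 1 of 6 higher in null mice, and the stellate list had 1 of 6 lower in each of the 3 comparisons. Cholangiocyte markers gave 1 rise with the drug and 1 lower in null mice among 3 tested, blood and lymphocyte markers 1 fall with the drug and 2 lower in Clk/Clk mice among 4. Of 6 carry-over markers of pancreas, muscle and gut, 3 passed the filter, with mean levels of 4.87 to 5.08 in all 12 mice.

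Bezafibrate lowered 5 members in wild-type liver and raised 1. Got1, Agxt and Etnppl fell by over 2 on the log2 scale, Gpt and Gpt2 fell by less than 1, and Psat1 rose by at least 13.1-fold. Calls needed both a difference of 1.5-fold or more and a limma p below 0.05 after Benjamini-Hochberg adjustment over all 13598 genes. The background of such calls was 7.77% of genes lower and 12.8% higher. The members' median difference was -0.58, against 0.01 for all genes tested. The remaining 4 members, all mitochondrial, lay between -0.44 and 0.07. In 7 members the treated mice all read below the untreated mice, and in 1 all read above, where 26.1% and 30.2% of all genes did so.

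**Figure D1:**
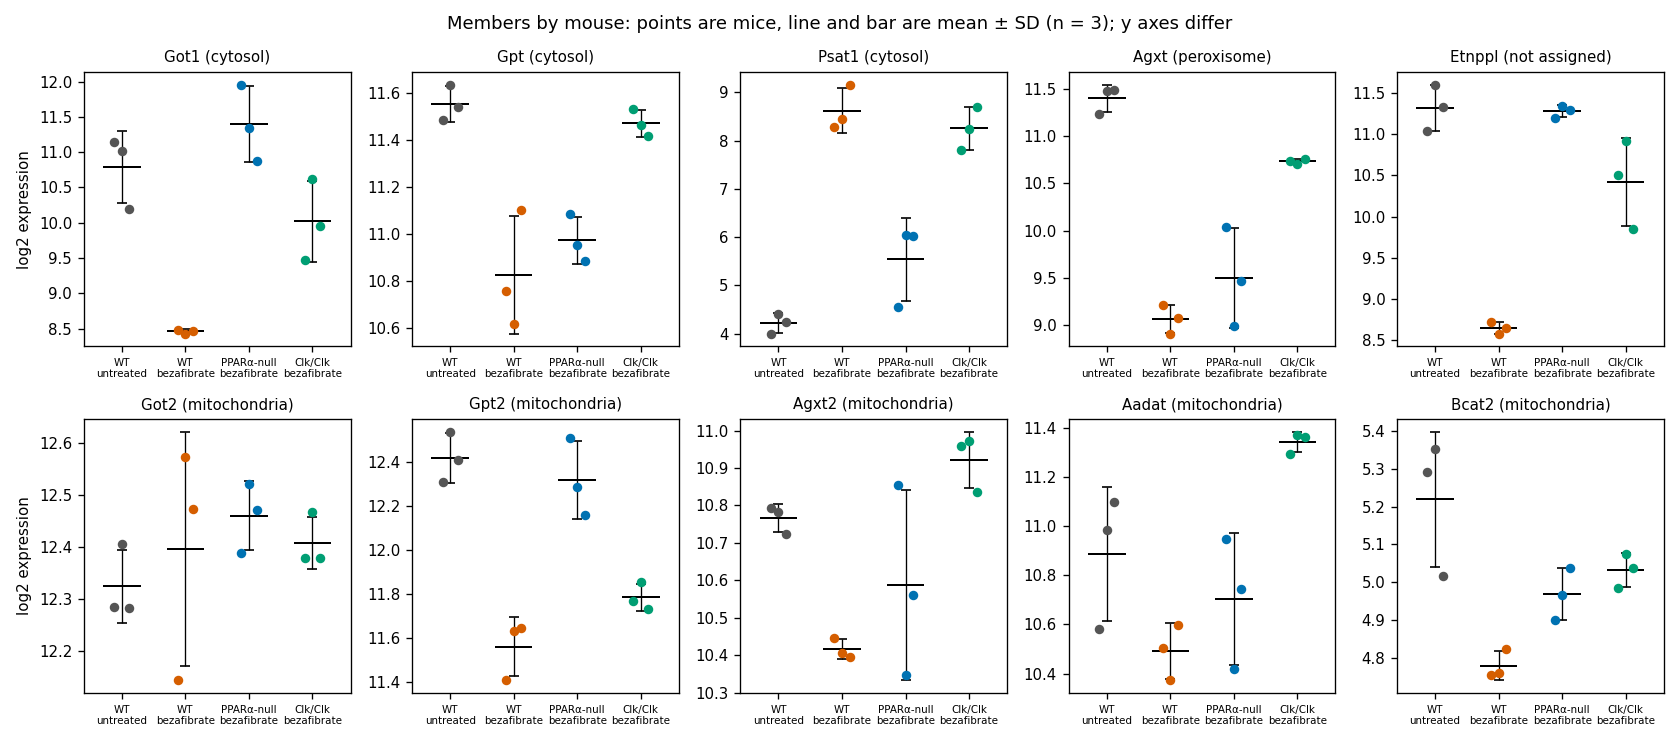
Log2 expression of each member in each of 12 mice (points), with the group mean and SD (line and bar, n = 3), for untreated wild type and for wild-type, PPARα-null and Clk/Clk mice on bezafibrate. Got1 and Etnppl are lowest in treated wild type, with the Clk/Clk means between those of treated and untreated wild type, Agxt is low in treated wild-type and null mice, and Psat1 is high in treated wild-type and Clk/Clk mice. The mitochondrial members and the cytosolic Gpt span narrower ranges than these, and the y axes differ between panels.

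Got1 encodes cytosolic aspartate aminotransferase, which in the malate-aspartate shuttle turns aspartate back into oxaloacetate in the cytosol. It read 11.15, 11.01 and 10.20 in the untreated wild-type mice and 8.49, 8.43 and 8.46 in the treated ones. In treated null mice it read 11.96, 11.35 and 10.88, and in treated Clk/Clk mice 9.47, 10.62 and 9.96. The treated wild-type mice were the lowest of all 12 and had an SD of 0.0292, against 0.513 to 0.577 in the other groups. Got1 fell with the drug (log2 difference -2.33, SE 0.327, 5.02-fold, adjusted p = 1.33e-04), and on the drug it was 7.65-fold higher in null mice (2.94, SE 0.327, adjusted p = 4.68e-05) and 2.95-fold higher in Clk/Clk mice (1.56, SE 0.327, adjusted p = 0.00578) than in wild type. Treated null mice lay 0.61 above untreated wild type (95% interval -0.11 to 1.32) and treated Clk/Clk mice differed from it by -0.77 (-1.49 to -0.05), and neither difference passed. The latter did pass when Clk/Clk mouse 2 (-1.07) or untreated mouse 3 (-1.06) was left out. Clk/Clk mice were lower than null mice (-1.38, SE 0.327, adjusted p = 0.00627), with no overlap.

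Got2, the mitochondrial isoenzyme of the same reaction, did not follow. Its brightest probe set read 12.29, 12.41 and 12.28 in untreated wild type, 12.14, 12.57 and 12.47 in treated wild type, 12.39, 12.52 and 12.47 in null and 12.38, 12.47 and 12.38 in Clk/Clk mice. All groups overlapped, and no comparison passed: the drug difference was 0.07 (95% interval -0.15 to 0.29), the null difference 0.06 (-0.16 to 0.28) and the Clk/Clk difference 0.01 (-0.21 to 0.23). These signs turned with single mice left out, as the values near 0 allow. The other 2 Got2 probe sets above the filter gave drug differences of 0.14 each. On 1 of them treated wild-type mouse 1 read 9.96 against 10.89 and 10.81 in its group; the last Got2 probe set lay under the filter on all 12 arrays, at 2.68 to 3.09. The gap between the isoenzymes was therefore measured within each array, as the log2 value of Got1 minus that of Got2. It was -1.14, -1.39 and -2.08 in untreated wild type, -3.66, -4.15 and -4.01 in treated wild type, -0.43, -1.18 and -1.59 in null and -2.90, -1.84 and -2.42 in Clk/Clk mice. The gap moved by -2.40 (SE 0.393) with the drug, and differed by 2.87 in null and 1.55 in Clk/Clk mice from treated wild type, each without overlap. Each of these 3 gave p = 0.1 in an exact two-sided permutation test over mice, the smallest p that 3 against 3 allows (0.133 after adjustment over 12 such tests).

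The promoters of this pair are shown because the genes encode enzymes of the same reaction and only Got1 was called. They are the 250 bases before the RefSeq start site (GRCm38.p6), for Got1 at chr19:43524606-43524855 and for Got2 at chr8:95888402-95888651, both on the minus strand and written 5′ to 3′. Capitals mark AGGTCA on either strand, the hexamer whose repeat PPARα binds with RXR.
Got1: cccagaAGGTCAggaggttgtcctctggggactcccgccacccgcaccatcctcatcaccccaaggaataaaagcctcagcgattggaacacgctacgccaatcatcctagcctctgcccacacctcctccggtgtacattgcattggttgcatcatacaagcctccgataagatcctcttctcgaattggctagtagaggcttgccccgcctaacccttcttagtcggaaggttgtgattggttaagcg
Got2: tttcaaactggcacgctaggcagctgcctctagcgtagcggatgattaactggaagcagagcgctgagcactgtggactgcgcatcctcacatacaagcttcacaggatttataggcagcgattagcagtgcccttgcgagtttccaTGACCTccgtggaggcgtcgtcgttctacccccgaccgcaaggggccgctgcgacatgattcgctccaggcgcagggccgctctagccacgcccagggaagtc
The hexamer starts 244 bases before the start of Got1 and, in the opposite orientation, 103 bases before that of Got2. It is present in 16.3% of all 32851 promoters of 300 bases (250 before and 50 after a start). CCAAT occurs in 37.4% of all promoters and at 6 positions in the Got1 window, at none in that of Got2. Both windows lie above the median of 7 CpG, with 18 in Got1 and 24 in Got2. Of all promoters 70.3% have fewer CpG than Got1 and 80.0% fewer than Got2.

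Gpt, the cytosolic alanine aminotransferase, and Gpt2, its mitochondrial isoenzyme, convert alanine and pyruvate into each other. The Gpt probe set read 11.49, 11.63 and 11.54 in untreated wild type, 10.76, 10.62 and 11.10 in treated wild type, 11.08, 10.95 and 10.89 in null and 11.53, 11.46 and 11.42 in Clk/Clk mice. Null mice thus lay among treated wild-type mice, and Clk/Clk mice next to untreated ones. Gpt fell with the drug (-0.73, SE 0.111, 1.66-fold, adjusted p = 2.37e-04). On the drug it differed by 0.15 in null mice (95% interval -0.09 to 0.39, adjusted p = 0.328) and was 1.56-fold higher in Clk/Clk mice (0.65, SE 0.111, adjusted p = 0.00193); the latter missed the fold threshold without treated wild-type mouse 2 (0.54). Against untreated wild type, treated Clk/Clk mice differed by -0.08 (-0.33 to 0.16) and treated null mice by -0.58 (adjusted p = 0.00412), under 1.5-fold. Gpt and Ppara are on the same chromosome with 177 array genes between them, and Agxt2 is on it too, with 451 between. Whether null mice carry the 129S4SvJae copy of either was not tested. For every member, the strain background of the null mice cannot be told apart from their genotype. The dimmer Gpt probe set gave -1.02 with the drug, 0.54 in null mice (adjusted p = 0.0269, under 1.5-fold) and 0.72 in Clk/Clk mice.

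On the brightest probe sets Gpt2 ran the other way between the mutants. Clk/Clk minus null mice was 0.50 for Gpt and -0.53 for Gpt2, both without overlap but under 1.5-fold. On the dimmer Gpt probe set the mutants overlapped (0.18, 95% interval -0.18 to 0.54), so the order for Gpt rests on the probe set used. Gpt2 read 12.31, 12.54 and 12.41 in untreated wild type, 11.41, 11.63 and 11.64 in treated wild type, 12.51, 12.29 and 12.16 in null and 11.77, 11.85 and 11.73 in Clk/Clk mice. Null mice overlapped untreated mice here, and Clk/Clk mice stood just above treated wild type. Gpt2 fell with the drug (-0.86, SE 0.102, 1.81-fold, adjusted p = 3.99e-05), was 1.69-fold higher in null mice (0.76, SE 0.102, adjusted p = 1.90e-04) and differed by 0.22 in Clk/Clk mice (95% interval 0.00 to 0.45, adjusted p = 0.132). Treated Clk/Clk mice stayed lower than untreated wild type (-0.63, SE 0.102, adjusted p = 3.72e-04), a call near the fold threshold. Of the 4 Gpt2 probe sets 3 were called lower with the drug and 2 higher in null mice, where 8.14% and 4.99% of all probe sets were. The weakest changes were on the dimmest probe set, at -0.43 and 0.35, both under 1.5-fold; with the mean of the probe sets the null difference was 0.57 and the Clk/Clk difference from untreated wild type -0.56, and both missed the fold threshold.

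The gap between the alanine isoenzymes, Gpt minus Gpt2, was -0.82, -0.91 and -0.87 in untreated wild type, -0.65, -1.01 and -0.54 in treated wild type, -1.43, -1.34 and -1.27 in null and -0.24, -0.39 and -0.32 in Clk/Clk mice. The wild-type groups overlapped, while null mice lay below and Clk/Clk mice above every wild-type mouse. The gap differed between Clk/Clk and null mice by 1.03 (SE 0.111) and moved with the drug in wild type by 0.13 (SE 0.111; exact permutation p = 0.4). The former gave the smallest p of an exact permutation test, 0.1. With the mean of each gene's probe sets these became 0.76 and -0.18. The Gpt and Gpt2 probe sets used for the gap carry a suffix that marks probes shared between transcripts.

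**Figure D2:**
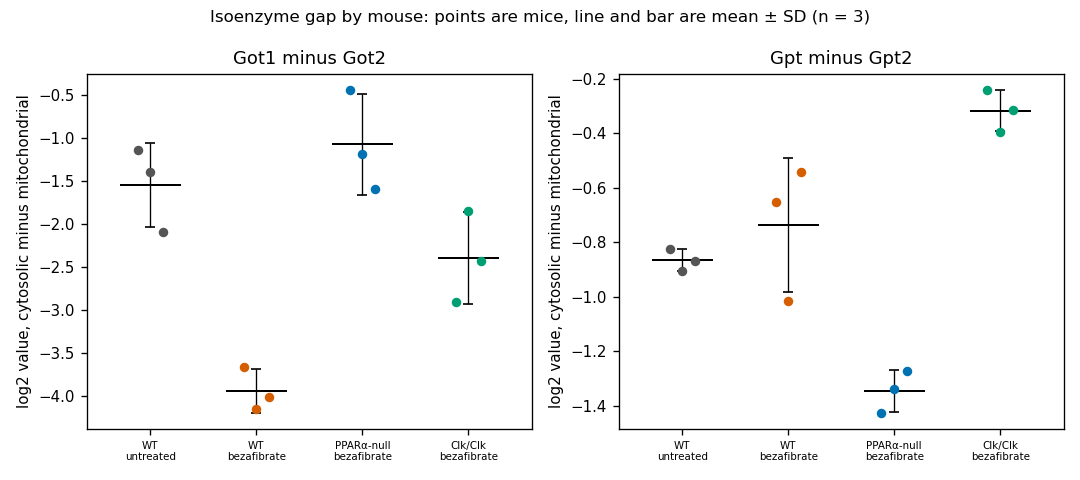
Log2 value of the cytosolic minus the mitochondrial isoenzyme in each of 12 mice (points), with mean and SD (line and bar, n = 3), for the aspartate (Got1, Got2) and alanine (Gpt, Gpt2) pairs. Treated wild-type mice are lowest for the aspartate pair (-4.15 to -3.66), whereas for the alanine pair the null mice are lowest (-1.43 to -1.27) and the Clk/Clk mice highest (-0.39 to -0.24); only changes of the gap are interpretable, not its level.

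Psat1, the cytosolic phosphoserine aminotransferase of serine synthesis, was the member that rose. It read 4.001, 4.41 and 4.25 in untreated wild type and 8.27, 8.44 and 9.16 in treated wild type. In null mice it read 4.55, 6.04 and 6.03, and in Clk/Clk mice 7.81, 8.25 and 8.70. The untreated readings all lay under the filter level of about 4.9, so the fitted rise of 4.40 (SE 0.377, 21.2-fold, adjusted p = 3.33e-06) is not exact. Set against that level, Psat1 was at least 13.1-fold higher in treated than in untreated wild type. On the drug it was lower in null mice (-3.08, SE 0.377, adjusted p = 9.27e-05; at least 7.85-fold, as 1 of 3 null readings lay under the level) and differed by -0.37 in Clk/Clk mice (95% interval -1.20 to 0.46, adjusted p = 0.505), whose values overlapped those of wild type. Treated null mice read above untreated wild type by 1.32 (SE 0.377, adjusted p = 0.0284), a difference that shrank to 0.63 with the untreated readings set to the level, and a call lost without null mouse 2 or 3 or any untreated mouse (adjusted p = 0.0509 to 0.108). On the second Psat1 probe set, where all 3 untreated readings and 1 null reading lay under the level, treated wild type was at least 7.05-fold higher than untreated and at least 6.01-fold higher than null mice, and Clk/Clk mice differed from it by -0.16. Both carry a suffix that marks probes shared between transcripts.

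Agxt is alanine-glyoxylate aminotransferase, a peroxisomal enzyme that in some mammals is also mitochondrial and that turns glyoxylate into glycine; its loss in humans causes primary hyperoxaluria. It read 11.24, 11.48 and 11.48 in untreated wild type, 9.21, 8.91 and 9.08 in treated wild type, 10.04, 8.99 and 9.47 in null and 10.73, 10.71 and 10.76 in Clk/Clk mice. Null mice overlapped treated wild type and stayed more than 1 unit below every untreated mouse; Clk/Clk mice lay between, with an SD of 0.027. Agxt fell with the drug (-2.33, SE 0.201, 5.04-fold, adjusted p = 3.47e-06). On the drug it differed by 0.43 in null mice (95% interval -0.01 to 0.87, adjusted p = 0.12), or 0.69 and called without null mouse 2. It was 3.17-fold higher in Clk/Clk mice (1.67, SE 0.201, adjusted p = 2.84e-04). Treated null mice were lower than untreated wild type (-1.90, SE 0.201, 3.74-fold, adjusted p = 1.22e-04) and so were treated Clk/Clk mice (-0.67, adjusted p = 0.0181, lost without untreated mouse 2 or 3, with adjusted p = 0.0547 and 0.0564).

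Etnppl belongs to the same fold family and shares its cofactor, but acts as a phospho-lyase that breaks down phosphoethanolamine, a precursor of membrane lipids. Its bright probe set read 11.04, 11.60 and 11.34 in untreated wild type, 8.71, 8.57 and 8.65 in treated wild type, 11.21, 11.35 and 11.30 in null and 10.51, 10.91 and 9.85 in Clk/Clk mice. Treated wild-type mice were again the lowest, null mice lay within the untreated range, and Clk/Clk mice lay below it. Etnppl fell with the drug (-2.68, SE 0.216, 6.40-fold, adjusted p = 2.08e-06), and was higher by 2.64 (SE 0.216, adjusted p = 4.76e-06) in null and by 1.78 (SE 0.216, adjusted p = 2.95e-04) in Clk/Clk mice than in treated wild type. Against untreated wild type, treated null mice differed by -0.04 (95% interval -0.51 to 0.43) and treated Clk/Clk mice were lower (-0.90, SE 0.216, adjusted p = 0.0052), a call lost with the mean of its probe sets (-0.82, adjusted p = 0.057).

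A second, dimmer Etnppl probe set agreed on the 3 comparisons with treated wild type and differed on the order of the mutants. It read 8.15, 6.58 and 6.97 in untreated wild type, 3.96, 3.12 and 3.54 in treated wild type, 4.88, 6.36 and 5.19 in null and 6.27, 7.53 and 5.68 in Clk/Clk mice. The treated wild-type values lay under the filter level, which makes untreated mice at least 5.13-fold higher. On this probe set treated null mice were lower than untreated wild type (-1.76, SE 0.522, adjusted p = 0.035 over all probe sets, of which 3.34% were called lower), with 1 null reading just under the level. Treated Clk/Clk mice differed from untreated wild type by -0.74 here (95% interval -1.88 to 0.40, adjusted p = 0.28) and overlapped them. The Clk/Clk difference from null mice was 1.02 here (95% interval -0.12 to 2.16), against -0.86 (SE 0.216, adjusted p = 0.00859) on the bright one. With the mean of both it was 0.08, so the order of the mutants for Etnppl rests on the probe set used; without Clk/Clk mouse 3 the bright one gave -0.57 and missed the fold threshold.

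**Figure D3:**
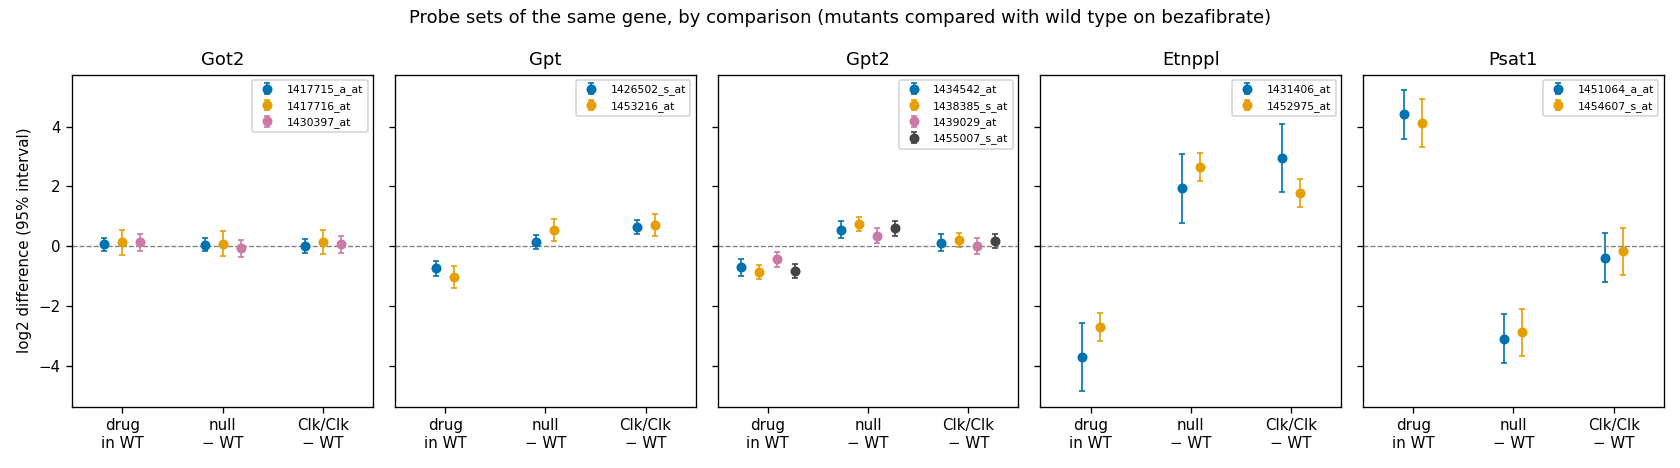
Log2 differences with 95% intervals of every probe set that passed the filter, for the 5 members with more than 1, in 3 comparisons: the drug effect in wild type, and each treated mutant minus treated wild type. The Got2 probe sets stay near 0 and the Psat1 and Gpt2 probe sets move together; for the drug the dimmer Etnppl probe set is drawn at -3.70, but its treated readings lay under the filter level and only a fall of at least 5.13-fold was measured.

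The promoters of Psat1, Agxt and Etnppl are shown as those of the members that changed most beside Got1. They were taken in the same way, at chr19:15925060-15925309 (minus strand) for Psat1, chr1:93134990-93135239 (plus strand) for Agxt and chr3:130617198-130617447 (plus strand) for the first start of Etnppl, and none holds AGGTCA, so all letters are lower case.
Psat1: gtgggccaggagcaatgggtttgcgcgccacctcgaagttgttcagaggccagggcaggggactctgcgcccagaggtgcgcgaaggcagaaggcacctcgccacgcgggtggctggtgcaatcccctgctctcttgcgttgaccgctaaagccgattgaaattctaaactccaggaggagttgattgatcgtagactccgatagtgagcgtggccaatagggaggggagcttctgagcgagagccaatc
Agxt: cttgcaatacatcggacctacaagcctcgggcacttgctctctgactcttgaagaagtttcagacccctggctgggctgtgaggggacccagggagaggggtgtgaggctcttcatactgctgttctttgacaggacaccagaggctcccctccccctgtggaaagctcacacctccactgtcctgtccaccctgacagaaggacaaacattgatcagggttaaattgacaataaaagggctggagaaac
Etnppl: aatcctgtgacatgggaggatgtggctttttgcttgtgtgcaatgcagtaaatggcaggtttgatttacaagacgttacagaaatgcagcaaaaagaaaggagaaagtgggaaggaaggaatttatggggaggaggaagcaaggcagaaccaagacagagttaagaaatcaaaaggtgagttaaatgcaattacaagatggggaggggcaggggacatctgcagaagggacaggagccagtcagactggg
The windows differ in CpG content: the Psat1 window of 300 bases has 20 CpG, and those of Agxt and Etnppl have 3 and 2. CCAAT lies 36 and 6 bases before and 23 after the start of Psat1. Among 13 promoters of 9 members (Gpt has no entry), none held the E-box CACGTG, which 7.15% of all promoters hold, or AGGTCA repeated after 1 base, which 0.0396% hold. AGGTCA itself was in 5 of the 13, those of Got1 and Got2, both of Agxt2 and the second of Etnppl. The Agxt2 windows overlap and hold the same copy of it, which is thus counted for both. A match is only a match of letters, and these windows are short.

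The 3 remaining mitochondrial members gave smaller differences. Aadat, which acts on aminoadipate in lysine breakdown and on kynurenine, read 10.58, 10.98 and 11.10 in untreated wild type, 10.50, 10.37 and 10.60 in treated wild type, 10.95, 10.42 and 10.74 in null and 11.29, 11.37 and 11.36 in Clk/Clk mice. The Clk/Clk mice lay above all other 9. Aadat was 1.80-fold higher in Clk/Clk than in wild-type mice on the drug (0.85, SE 0.146, adjusted p = 0.00198) and higher than in null mice by 0.64 (SE 0.146, adjusted p = 0.00509), the latter under 1.5-fold without null mouse 2 (0.50). Its drug difference in wild type, -0.39 (SE 0.146, adjusted p = 0.0428), was under 1.5-fold, and the groups overlapped.

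Agxt2, a mitochondrial enzyme that uses glyoxylate and clears methylated arginines, spanned 10.72 to 10.79 in untreated wild type, 10.40 to 10.45 in treated wild type, 10.35 to 10.85 in null and 10.84 to 10.97 in Clk/Clk mice. Its differences of -0.35 with the drug (SE 0.106, adjusted p = 0.0174) and 0.51 in Clk/Clk mice (SE 0.106, adjusted p = 0.00577) had no overlap but were under 1.5-fold. Bcat2, which starts the breakdown of branched-chain amino acids and is low in liver, read 5.02 to 5.35 in untreated wild type and 4.75 to 4.82 in treated wild type, the latter under the filter level. It read 4.90 to 5.04 in null and 4.98 to 5.07 in Clk/Clk mice. Its drug difference was -0.44 (SE 0.0862, adjusted p = 0.00133), under 1.5-fold, and with the treated readings under that level its size is not exact.

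**Figure D4:**
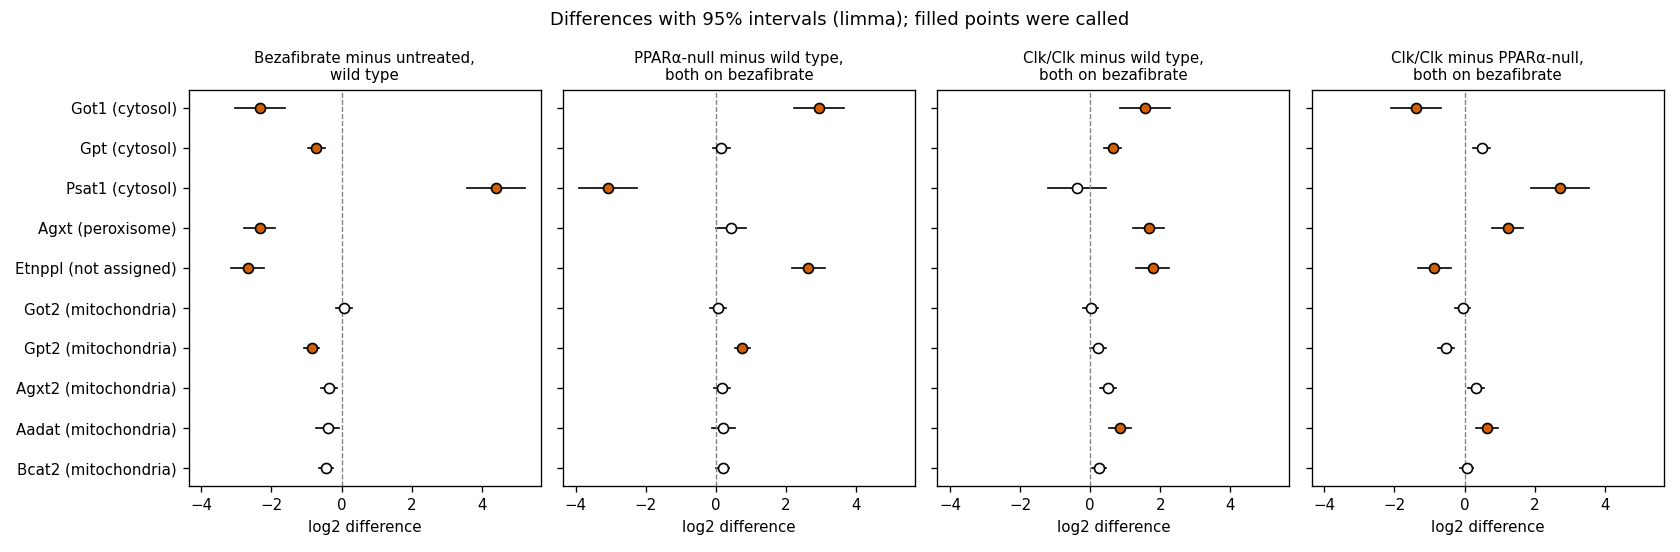
Log2 difference of each member (point) with its 95% interval from limma in 4 comparisons, with called members filled. The 5 mitochondrial members lie between -0.86 and 0.85, while Etnppl reaches -2.68 in the first panel. Psat1 is drawn there at 4.40, which is not exact because its untreated readings lay under the filter level. In the panel of Clk/Clk minus null, the called Got1 and Etnppl lie on one side of 0 and the called Psat1, Agxt and Aadat on the other. The side of Etnppl is that of its bright probe set (-0.86), as the dimmer one gave 1.02.

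By compartment, the 3 cytosolic members gave 2 falls and 1 rise with the drug (-2.33, -0.73 and 4.40), the 5 mitochondrial members 1 fall (median -0.39, range -0.86 to 0.07), and the peroxisomal member 1 fall (-2.33). In null against wild-type mice on the drug, where 5.35% of all genes were called higher and 8.09% lower, 3 members were higher and 1 lower. Groups did not overlap in 4 members upwards and 1 downwards (24.3% of all genes each way). The called members were Got1 among cytosolic members and Gpt2 among mitochondrial ones, with Etnppl, and Psat1 downwards; the mitochondrial median was 0.19. Clk/Clk mice had 5 members higher than wild type (4 without treated wild-type mouse 2) and 0 lower by limma (0 also at an unadjusted p under 0.05), where 2.64% of all genes were called higher and 6.49% lower. Groups did not overlap in 8 members upwards and in 0 downwards (21.2% and 21.1% of all genes). Of the called members, Got1 and Gpt are cytosolic, Aadat mitochondrial, Agxt peroxisomal, and Etnppl not assigned. Among the members given a compartment, the largest mitochondrial difference in any of the 3 comparisons was smaller in size than that of Got1 or Agxt with the drug. Etnppl was left out of this ranking as not assigned. It differed by -2.68 with the drug and by 2.64 in null mice, so the ranking would not hold if Etnppl were counted as mitochondrial. The falls of the cytosolic Gpt (-0.73) and the mitochondrial Gpt2 (-0.86) with the drug, however, were not told apart. Their gap moved by 0.13 (SE 0.111, exact permutation p = 0.4), and by -0.18 with the mean of the probe sets. Outside the members, the mitochondrial Oat differed by -2.26 with the drug and by 3.20 in null mice. No test was made between compartments, which hold 3, 5 and 1 members. All 3 comparisons use the treated wild-type mice, so they are not independent of each other.

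Set directly against each other, the mutants differed in 5 members, 3 higher and 2 lower in Clk/Clk mice (7.43% and 7.78% of all genes). Psat1 was higher by 2.71 (SE 0.377, at least 6.06-fold, adjusted p = 1.84e-04), Agxt by 1.24 (SE 0.201, adjusted p = 5.57e-04) and Aadat by 0.64, and Got1 and the bright Etnppl probe set were lower. Against untreated wild type, treated null mice had 1 member higher and 1 lower (3.96% and 2.69% of all genes), Psat1 and Agxt. Treated Clk/Clk mice had 1 higher and 3 lower (10.6% and 8.82%), Psat1 at 4.03 (SE 0.377, at least 10.2-fold against the filter level), and Agxt, Etnppl and Gpt2.

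The other genes of these pathways came from lists named from general knowledge, of which 50 of 55 genes were tested. Beside the counts below, 7.77% of all genes were called lower and 12.8% higher with the drug. On the drug, 5.35% were higher and 8.09% lower in null mice than in wild type, and 2.64% higher and 6.49% lower in Clk/Clk mice. Among 9 further aminotransferases 3 fell with the drug, 2 were higher and 1 lower in null mice, and 3 were higher in Clk/Clk mice. Oat, the mitochondrial ornithine aminotransferase, fell by 2.26 (SE 0.204) and was higher by 3.20 (SE 0.204) in null mice, and the tyrosine aminotransferase Tat, also among the hepatocyte markers, fell by 1.64 (SE 0.216). Kyat3, which acts on kynurenine, was lower in null mice (-0.74, SE 0.108). In Clk/Clk mice Oat was higher by 1.05 (SE 0.204), Kyat1 by 0.62 and the GABA aminotransferase Abat by 0.77. Among partners of the malate-aspartate shuttle, Mdh2 rose with the drug (0.87, SE 0.0671), the aspartate-glutamate carrier Slc25a13 fell (-0.59, SE 0.064), Slc25a12 was higher in null mice (0.91, SE 0.11), and the remaining 2 of 5 were not called; 0 were called in Clk/Clk mice by limma (1 higher and 0 lower at an unadjusted p under 0.05).

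Around Psat1, the phosphatase Psph, which completes serine synthesis, rose with the drug by 1.26 (SE 0.17), was lower in null mice (-1.33) and was not called in Clk/Clk mice; it was the only call among the 5 tested genes of that list in these comparisons. Around Agxt, Hao1, which makes glyoxylate in peroxisomes, fell by 1.40 (SE 0.0987) and was higher in null mice by 0.72, while Grhpr, which reduces glyoxylate, rose by 0.71 (SE 0.0674) and was lower in null mice (-0.80); 0 of the 6 were called in Clk/Clk mice by limma (2 higher and 1 lower at an unadjusted p under 0.05). Of 16 tested genes of branched-chain breakdown 4 fell with the drug, 3 were higher in null and 4 in Clk/Clk mice, and 0 were called the other way by limma (3, 2 and 0 at an unadjusted p under 0.05). Acadsb fell by 1.73 (SE 0.0956) and the Dbt subunit of the branched-chain dehydrogenase fell by 1.49 (SE 0.0932). Acadsb was higher by 1.01 and Hibadh by 0.59 in null mice, and Hsd17b10 was higher by 1.33 and Ivd by 0.59 in Clk/Clk mice. In the lysine list 2 of 5 fell, Aass (-1.39) and Dhtkd1 (-1.42), and the same 2 were higher in null mice (1.29 and 1.31) and in Clk/Clk mice (1.25 and 1.27). Pdxk, the kinase that makes pyridoxal phosphate, fell by 0.91 (SE 0.0676), was higher by 1.01 in null mice and was lower in Clk/Clk mice (-0.61); Pdxp, which removes the phosphate, was lower in Clk/Clk mice (-0.66). Of the glutamate list, Glul, glutamine synthetase, was higher by 0.92 (SE 0.111) in null mice, and Glud1 was not called in these 3 comparisons.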

How the data were processed

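Log2 expression values per probe set were deposited by the authors; RMA, which corrects background, equalises arrays and summarises probes, is named per the submitters' processing notes, without version or settings. Per the labels' protocols, labelling used 250 ng of total RNA. The 12 array medians lay between 5.45 and 5.50. Arrays have no sequencing depth; 3 mice per group limit the precision.

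Of 45037 probe sets that were not controls, 34945 had exactly 1 symbol on the platform; 34754 of these matched a RefSeq gene (GRCm38.p6) by gene identifier, and no symbol changed. The filter on dim probe sets asked for 3 or more arrays at or above that array's own 40th percentile, which was 4.87 to 4.92. Each gene was represented by its brightest probe set. One limma model (version 3.58.1, R 4.3.3; lmFit and eBayes) held the 4 group means (12 arrays; 8 residual degrees of freedom), and 28344 probe sets were fitted in the same way. Isoenzyme gaps were compared by exact permutation. On simulated data for the drug comparison (13598 genes), 35.8%, 92.5% and 98.5% of genes changed 1.5-, 2- and 4-fold were recovered. The smallest of these changes equals the fold threshold, so genes whose estimate fell under it were not called whatever their p. A bound sets the bright group's mean against the higher of the filter level and the dim value on each array. The text names all 10 members, Ppara, Clock and up to 2 called genes per pathway list and comparison; Oat in Clk/Clk mice was the third there. The members and lists were chosen with earlier results of these data known. CCAAT and TATAAA were added to the motifs after the data were seen; TATAAA was in the windows of Got2 and Agxt2 (13.6% of all promoters). Promoters are from RefSeq. Protein sequences were not analysed here. Alternatives are in the closing section.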

Additional observations from a re-analysis of the deposited data

How the results depend on the processing

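Alternatives were no filter or a 60th percentile filter, quantile normalization, averaging a gene's probe sets, leaving out suffix probe sets, a replicate block, trend and robust settings, array weights, only the 2 groups compared, and leaving out each of 12 mice. They gave 1242 values for single members, of which 1208 kept their direction and side of the threshold, 16 lost a call, 9 gained one and 9 changed sign.

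Without suffix probe sets Psat1 and Bcat2 were not represented, and the counts that rested on Psat1 became 0: members higher with the drug, lower in null than wild-type mice on the drug, and higher in either treated mutant than in untreated wild type. Gpt2 then also missed the fold threshold in null against wild-type mice on the drug (0.56) and in treated Clk/Clk mice against untreated wild type (-0.56). With the mean of the probe sets 1 member was lower in treated Clk/Clk mice than in untreated wild type and 1 was lower in Clk/Clk than in null mice. With quantile normalization or array weights 2 members were lower in treated null mice than in untreated wild type, as Gpt passed (-0.60). Leaving out 1 mouse gave 0 to 1 members higher and 1 to 2 lower in treated null mice against untreated wild type, 1 to 4 lower in treated Clk/Clk mice against untreated wild type (1 without untreated mouse 2, 4 without Clk/Clk mouse 2), and 1 to 3 lower in Clk/Clk against null mice (1 without Clk/Clk mouse 3, 3 without null mouse 3).

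Of the sign changes, that of Etnppl between the mutants turned a called difference (-0.86), and the others were of differences that had not passed. Over single mice left out Got2 ran from -0.016 to 0.20 for the drug, from -0.063 to 0.15 for null and from -0.12 to 0.10 for Clk/Clk against wild type, and Etnppl from -0.18 to 0.10 for treated null mice against untreated wild type. For Clk/Clk against null mice the mean of the probe sets gave 0.049 for Got2 and 0.080 for Etnppl, and without suffix probe sets Got2 gave 0.059. The drug's move of the alanine gap was -0.18 with the mean of the probe sets. The cause of these changes was not tested.

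With the replicate number as a block, the counts of members called were the same in all 6 comparisons (5 lower and 1 higher with the drug). The deviations of same-numbered mice correlated weakly, with 3 of 18 pairs above 0.1 (median 0.0277, range -0.0924 to 0.125). Pairs with different numbers had a lower median, -0.0173, and 10 of 12 arrays were closest to their own number. What the replicate number stands for was not tested.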
